A study of Mus musculus with 8 samples.

Results

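A set of 10 RNA-binding proteins that act on alternative splicing in heart and skeletal muscle were followed across 3 genotypes of mouse heart: Mbnl1 and Mbnl2, Celf1 and Celf2, Rbfox1 and Rbfox2, Qk, Ptbp1, Rbm20 and Rbm24. They were chosen by symbol, as known regulators of muscle splicing, and all 10 were among the 24516 genes of the table and among the 15075 genes that passed the filter on low counts. Bulk RNA sequencing was done on hearts of mice at postnatal day 40 (P40), homozygous (HOMO, n = 3) or heterozygous (HET, n = 3) for a CRISPR/Cas9 deletion of a conserved enhancer of Actn2, or wild type (WT, n = 2). The labels place the hearts in the same litter and name no strain or sex, no line or founder, and no treatment. The labels do not say that each library is a separate animal, and the p-values then measure only the spread between these libraries, part of which may be technical.

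Alternative splicing lets a muscle gene give fetal or adult protein isoforms from the same locus. MBNL proteins favour adult isoforms and CELF1 opposes them at many exons, and loss of MBNL function to expanded repeat RNA underlies myotonic dystrophy. RBFOX proteins bind UGCAUG motifs beside exons, QKI (the product of Qk) binds ACUAAY-type elements and stabilizes or splices muscle transcripts, PTBP1 represses exons in non-muscle cells and declines during muscle differentiation, and RBM20 and RBM24 act in striated muscle on titin and other sarcomere transcripts. Counts per gene show how much RNA of each regulator was present. They do not show which isoforms were made, nor the amount or activity of the protein.

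Libraries held 33197075 to 55902737 counts in HOMO, 22230090 to 31247412 in HET and 25017723 to 30568468 in WT. WT 2 stood apart: in a principal component analysis of 1000 variable genes its score on component 1 (35.9% of the variance) was 61.4, that of WT 1 was 10.8 and those of the deletion libraries -14.2 to -7.87. The log2 fold changes of the regulators against WT are therefore also given without WT 2. Actn2, the gene whose enhancer was deleted, had 1611 to 2115 CPM (counts scaled to library size with TMM factors) in HOMO, 1546 to 1693 CPM in HET and 2187 to 2703 CPM in WT (log2 fold change -0.41, SE 0.16, adjusted p = 0.0771 for HOMO over WT, and -0.59, SE 0.16, adjusted p = 0.0193 for HET over WT). Without WT 2 the HET call of Actn2 was lost (-0.40, adjusted p = 0.128), and HOMO stood at -0.22 (adjusted p = 0.436). Gene counts do not cover the deleted enhancer and so do not check the genotype labels directly. Defining cardiomyocyte markers were abundant in every library, with summed levels of 76904 to 83669 CPM in HOMO, 77243 to 82808 CPM in HET and 92311 to 109308 CPM in WT over 9 genes.

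Promoters of the regulators are shown first for the largest rise (Qk), for the largest rise in the MBNL family (Mbnl2) and for the fall (Ptbp1). RefSeq promoter windows, from 250 bases before to 50 after a gene's start on GRCm38.p6, were found for 8 of the 10 regulators, 14 windows in all. Rbm20 and Rbfox2 had no entry. In the sequences below, capitals mark every GGGCGG motif or its reverse complement CCGCCC, the core of the GC box bound by Sp1-type factors.
Qk promoter, chr17:10319312-10319611, minus strand: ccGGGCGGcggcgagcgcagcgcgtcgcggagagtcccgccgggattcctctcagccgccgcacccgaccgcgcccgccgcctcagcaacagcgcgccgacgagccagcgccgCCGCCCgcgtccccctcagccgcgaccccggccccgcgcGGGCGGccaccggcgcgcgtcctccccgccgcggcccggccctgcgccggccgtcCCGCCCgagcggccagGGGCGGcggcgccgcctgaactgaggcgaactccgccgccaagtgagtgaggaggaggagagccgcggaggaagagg
Mbnl2 promoter, chr14:120275419-120275718, plus strand: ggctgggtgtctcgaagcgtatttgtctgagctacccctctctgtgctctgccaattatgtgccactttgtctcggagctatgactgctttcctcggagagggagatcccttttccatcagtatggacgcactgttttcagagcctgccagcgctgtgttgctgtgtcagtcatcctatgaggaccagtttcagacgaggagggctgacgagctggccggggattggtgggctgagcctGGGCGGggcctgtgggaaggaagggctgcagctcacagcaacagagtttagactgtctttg
Ptbp1 promoter, chr10:79854182-79854481, plus strand: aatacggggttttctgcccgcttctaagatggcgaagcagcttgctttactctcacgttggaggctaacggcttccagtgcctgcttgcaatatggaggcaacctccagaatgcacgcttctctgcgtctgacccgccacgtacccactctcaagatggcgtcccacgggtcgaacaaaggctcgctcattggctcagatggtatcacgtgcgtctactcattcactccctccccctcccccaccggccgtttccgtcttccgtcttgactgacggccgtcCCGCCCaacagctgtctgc
The Qk window was 81.7% G or C with 57 CG dinucleotides and 5 GC-box matches, the Mbnl2 window 56.3% with 10 CG and 1 match, and the Ptbp1 window 58.3% with 22 CG and 1 match. The median over all 32841 windows of the table was 7 CG. GGGCGG, read on both strands, was found in 7 of the 14 windows (6 of the 8 regulators) and in 35.7% of all windows. TATAAA, on both strands, was in 2 of the 14 and in 13.6% of all. The E-box CANNTG, which is its own reverse complement, was in 9 of the 14 and in 72.3% of all. A loose form of the MEF2 element, with any bases in its middle, was in 0 of the 14 and in 3.69% of all. The share of windows with the stricter element was not computed. The motifs were searched separately and windows of 1 gene can overlap. A match describes letters in the window and says nothing of binding in these hearts.

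Of the 10 regulators, 5 were higher in HOMO hearts than in WT and 1 was lower: Mbnl1, Mbnl2, Celf1, Rbfox2 and Qk rose and Ptbp1 fell (edgeR quasi-likelihood test, adjusted p under 0.05 over all genes). In HET hearts the same 6 genes passed in the same directions and Celf2 rose too. Of all genes tested, 15.3% were called higher and 12.4% lower in HOMO over WT (27.7% in all), and 15.2% higher and 12.8% lower in HET over WT (28% in all). The median log2 fold change of the 10 regulators was 0.60 in HOMO and 0.51 in HET, where the median of all genes was -0.03 in each; corrected for gene properties as described below, the medians of the 10 were 0.15 and 0.10, and that of all genes -0.02 in each. All HOMO libraries lay above both WT libraries for 7 regulators (27.6% of all genes) and below both for 1 (27.2% of all genes), and all HET libraries lay above for 6 (25.7% of all genes) and below for 1 (25.6% of all genes). Every deletion library lay above both WT libraries for 6 regulators (Mbnl1, Mbnl2, Celf1, Celf2, Rbfox2 and Qk), an arrangement shared by 22.1% of all genes, and below both for Ptbp1, as for 20.7% of all genes. The comparisons of HOMO and HET share the WT libraries and are not independent of each other.

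**Figure D1:**
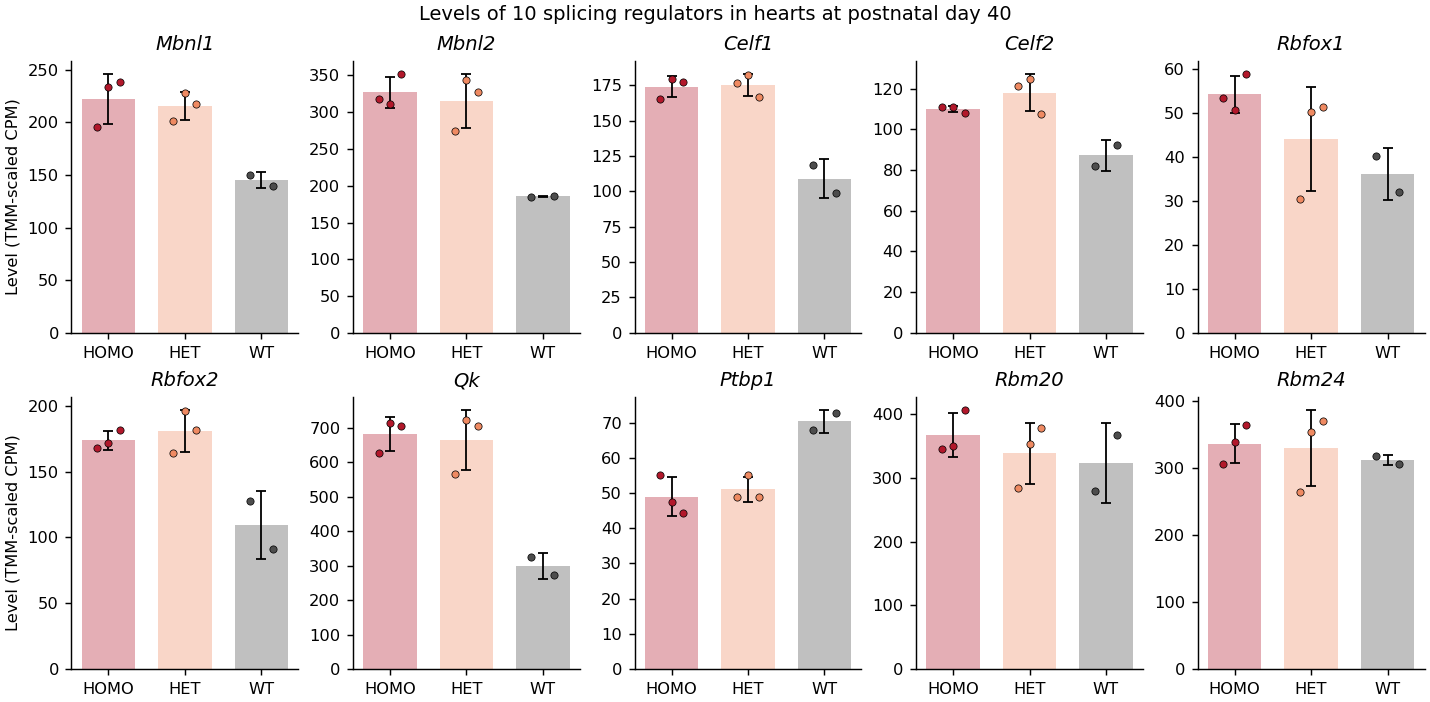
TMM-scaled CPM of the 10 regulators by genotype; bars give the mean, error bars the SD and points the libraries (HOMO n = 3, HET n = 3, WT n = 2). For Mbnl1, Mbnl2, Celf1, Celf2, Rbfox2 and Qk all deletion libraries lie above both WT libraries, for Ptbp1 all lie below, and for Rbm20 and Rbm24 the genotypes overlap.

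These calls moved with gene properties. All 10 regulators have 3′ UTRs (in the longest coding transcript of GENCODE M21) longer than the median of 1.14 kb over 13863 genes, 8 have transcripts longer than the median of 3.16 kb, and 7 have a GC content below the median of 50.4%. Across all genes, the median log2 fold change of HOMO over WT was -0.49 in the tenth of genes with the shortest 3′ UTRs and 0.48 in the tenth with the longest, and that of HET over WT -0.47 and 0.50. Celf1, Celf2, Rbfox2 and Qk are in the longest group (over 3.67 kb). Splines of these 3 properties took up 4.93% to 6.15% of the variance of deviations between genes in HOMO, 3.99% to 9.56% in HET, and 17.0% and 18.3% in WT 1 and WT 2. Deviations were taken from the mean over all 8 libraries, 6 of them deletion libraries. A trend that differs between deletion and WT libraries therefore weighs more in WT. These shares cannot show in which genotype the trend lies. With that trend removed from each library, 1 regulator was called higher in HOMO over WT (Qk), where 14% of all genes were called (8.37% higher, 5.64% lower). Likewise 1 was called higher in HET over WT (Rbfox2), where 13.3% were called (7.79% higher, 5.55% lower). The correction takes away any real change that follows these properties as well. Whether the trend has a technical source was not tested, and the values of the regulators below are given with their corrected values.

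**Figure D2:**
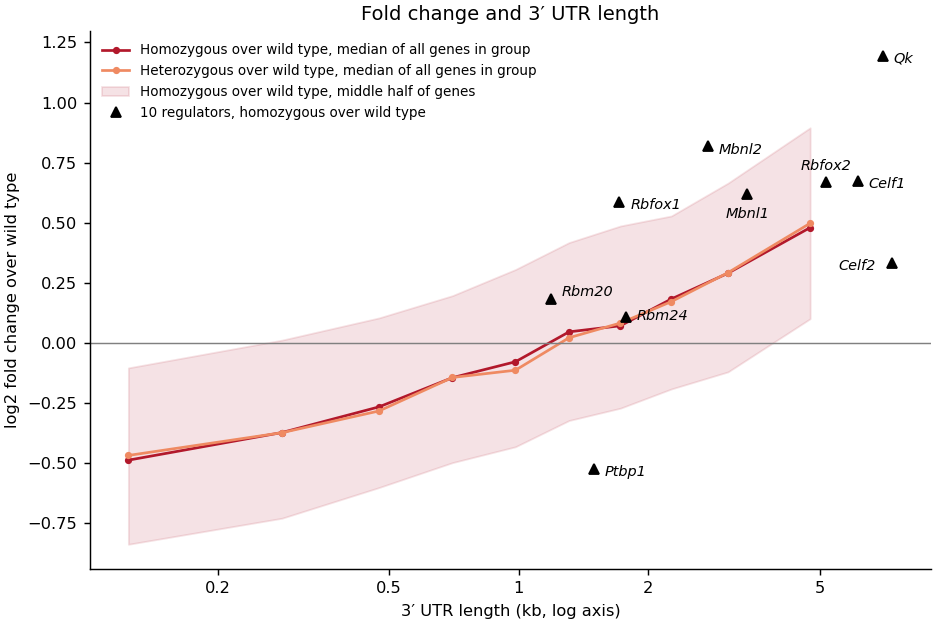
log2 fold change over WT against 3′ UTR length (kb, log axis). Lines join the medians of 10 equal groups of genes for HOMO over WT and HET over WT, the band holds the middle 50% of genes for HOMO over WT, and triangles are the 10 regulators for HOMO over WT; medians run from -0.49 to 0.48 in HOMO, Qk lies at 1.19 and Ptbp1 at -0.52.

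Qk (ENSMUSG00000062078.15, chromosome 17, 10202601 to 10319854, minus strand, mm10) encodes the STAR-family protein quaking, which in muscle cells acts on splicing and RNA stability. It had 627, 715 and 706 CPM in HOMO 1 to 3, 565, 724 and 705 CPM in HET 1 to 3, and 325 and 272 CPM in WT 1 and 2. No deletion library came near the WT libraries, and the lowest was HET 1. The means were 683 ± 48.6 CPM in HOMO (SD, n = 3), 665 ± 86.9 CPM in HET (SD, n = 3) and 298 ± 37.4 CPM in WT (SD, n = 2). Qk rose 2.29-fold in HOMO (log2 fold change 1.19, SE 0.16, adjusted p = 0.000777) and 2.23-fold in HET (1.16, SE 0.16, adjusted p = 0.00087) by edgeR. It held its call without WT 2 (1.11 and 1.06, adjusted p = 0.00261 and 0.00302). After the correction the log2 fold change was 0.41 in HOMO (adjusted p = 0.047) and 0.34 in HET (adjusted p = 0.0885, not called). The corrected HOMO call was lost when WT 1 was left out too (0.41, adjusted p = 0.0623) and when WT 2 was (0.43, adjusted p = 0.133).

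The MBNL genes encode zinc finger proteins that promote adult splice patterns. Mbnl2 (ENSMUSG00000022139.17, chromosome 14, 120275669 to 120431697, plus strand) had 319, 311 and 351 CPM in HOMO, 274, 344 and 327 CPM in HET, and 185 and 186 CPM in WT. The WT libraries differed from each other by less than 1 CPM, and the lowest deletion library (HET 1) was well above them. Mbnl2 rose 1.76-fold in HOMO (log2 fold change 0.82, SE 0.14, adjusted p = 0.00274) and 1.70-fold in HET (0.77, SE 0.14, adjusted p = 0.0034). Mbnl1 (ENSMUSG00000027763.13, chromosome 3, 60472830 to 60629750, plus strand) had 195, 234 and 238 CPM in HOMO, 201, 228 and 218 CPM in HET, and 150 and 140 CPM in WT. It rose 1.53-fold in HOMO (0.62, SE 0.13, adjusted p = 0.00761) and 1.49-fold in HET (0.57, SE 0.13, adjusted p = 0.0102), with no overlap between the deletion and the WT libraries. Without WT 2 both genes kept their calls in both genotypes. After the correction neither was called: Mbnl2 stood at 0.27 and 0.18 (adjusted p = 0.209 and 0.399), and Mbnl1 changed sign, at -0.05 and -0.12 (adjusted p = 0.789 and 0.536), in HOMO and HET over WT in that order.

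The CELF genes encode proteins that bind GU-rich RNA and act against MBNL at many exons. Celf1 (ENSMUSG00000005506.16, chromosome 2, 90940382 to 91019497, plus strand) had 165, 179 and 177 CPM in HOMO, 176, 182 and 167 CPM in HET, and 119 and 99.1 CPM in WT. It rose 1.60-fold in HOMO (log2 fold change 0.67, SE 0.12, adjusted p = 0.00384) and 1.61-fold in HET (0.68, SE 0.12, adjusted p = 0.00332), and the 6 deletion libraries lay between 165 and 182 CPM. Celf2 (ENSMUSG00000002107.18, chromosome 2, 6539694 to 7509563, minus strand) had 111, 111 and 108 CPM in HOMO, 121, 125 and 108 CPM in HET, and 81.9 and 92.5 CPM in WT. It rose 1.35-fold in HET (0.44, SE 0.12, adjusted p = 0.0198) and did not pass in HOMO (0.33, SE 0.12, adjusted p = 0.0561), although no HOMO library reached down to WT. The HET call of Celf2 was lost without WT 1 (0.36, adjusted p = 0.0529) or HET 2 (0.40, adjusted p = 0.0649), and without WT 2 Celf2 passed in both (0.46 and 0.56, adjusted p = 0.0414 and 0.0171). Without WT 2 Celf1 was at 0.58 and 0.59 (adjusted p = 0.0143 and 0.0124). After the correction Celf1 stood at 0.14 and 0.15 (adjusted p = 0.405 and 0.396), and Celf2 was negative, at -0.44 and -0.37 (adjusted p = 0.0594 and 0.107). Of the exons of Celf2, 7.6% overlap a long non-coding RNA on the other strand, and the strand setting of the counting is not given in the sources used here.

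RBFOX proteins promote or repress exons according to the side on which they bind. Rbfox2 (ENSMUSG00000033565.18, chromosome 15, 77078990 to 77307004, minus strand) had 168, 172 and 182 CPM in HOMO, 164, 196 and 182 CPM in HET, and 127 and 91.4 CPM in WT. The WT libraries were further apart than the 3 HOMO libraries, with WT 2 the lowest of all. Rbfox2 rose 1.59-fold in HOMO (log2 fold change 0.67, SE 0.16, adjusted p = 0.0104) and 1.65-fold in HET (0.73, SE 0.16, adjusted p = 0.00709). Without WT 2 the values were 0.48 and 0.54 (adjusted p = 0.0452 and 0.0279). After the correction they were 0.40 (adjusted p = 0.0545) in HOMO and 0.48 (adjusted p = 0.0285) in HET, where it remained called; leaving out WT 2 as well ended it (0.35, adjusted p = 0.159).

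Rbfox1 (ENSMUSG00000008658.16, chromosome 16, 5885355 to 7411526, plus strand), the neuron and muscle member of the family, varied widely among the HET libraries. It had 53.3, 50.6 and 58.8 CPM in HOMO, 30.3, 50.2 and 51.4 CPM in HET, and 40.2 and 32.0 CPM in WT. The HOMO libraries were above WT, while HET 1 was below both WT libraries and HET 2 and 3 were near HOMO. The log2 fold changes were 0.59 (SE 0.21, adjusted p = 0.0651) in HOMO and 0.29 (SE 0.21, adjusted p = 0.346) in HET, neither of which passed. With HET 1 left out both passed (0.62, adjusted p = 0.0106, and 0.52, adjusted p = 0.0309). After the correction the values were 0.40 and 0.06 (adjusted p = 0.242 and 0.882), and without WT 2 they were 0.46 and 0.16 (adjusted p = 0.316 and 0.744).

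Ptbp1 (ENSMUSG00000006498.16, chromosome 10, 79854427 to 79864771, plus strand) encodes the polypyrimidine tract binding protein, a repressor of muscle and neuronal exons. It had 55.2, 47.6 and 44.3 CPM in HOMO, 48.9, 55.3 and 49.0 CPM in HET, and 68.1 and 72.7 CPM in WT. Ptbp1 fell to 49.0 ± 5.60 CPM in HOMO (SD, n = 3) and 51.0 ± 3.67 CPM in HET (SD, n = 3), against 70.4 ± 3.24 CPM in WT (SD, n = 2), log2 fold changes of -0.52 (SE 0.13, adjusted p = 0.0134) and -0.46 (SE 0.13, adjusted p = 0.0222). Both calls were lost without WT 2 (-0.44 and -0.38, adjusted p = 0.077 and 0.112), the HOMO call without HOMO 3 (-0.45, adjusted p = 0.0586), and the HET call without HET 1 (-0.41, adjusted p = 0.0689) or HET 3 (-0.43, adjusted p = 0.075). After the correction the values were -0.38 and -0.29 (adjusted p = 0.06 and 0.136). Up to 9.2% of the exons of Ptbp1 overlap any 1 of 3 genes on the other strand (a pair of non-coding genes and Plppr3).

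Of the summed marker levels of other cell types that follow, several did not overlap between deletion and WT libraries. These were leukocytes, endothelium, neurons and Schwann cells, skeletal muscle and adipocytes, all lower in the deletion libraries, as was the cardiomyocyte sum given above. Of single genes, 20.7% lay below both WT libraries in all 6 deletion libraries. The sums of fibroblasts, smooth muscle and pericytes, and atrial cells, and the erythroid gene Alas2, overlapped. The sums are not corrected for gene properties. Of the 9 cardiomyocyte markers, 1 rose and 2 fell in HOMO, and 1 rose and 3 fell in HET. Their median log2 fold changes were -0.34 and -0.39, and -0.23 and -0.25 without WT 2. After the correction 1 rose and 0 fell in each (medians 0.20 and 0.12). Of the 5 tested neuron and Schwann markers, 1 fell in HOMO and 2 in HET (medians -0.98 and -1.09). Without WT 2 their medians were -0.09 and -0.33. Leukocyte markers (9 genes) summed to 158 to 168 CPM in HOMO, 154 to 198 CPM in HET and 208 CPM in both WT libraries, with 1 called higher and 1 lower in each deletion genotype. Endothelial markers (9 genes) summed to 1896 to 2259 CPM in HOMO, 1765 to 2339 CPM in HET and 2504 to 2816 CPM in WT, with 2 called lower and 0 higher in each (without WT 2, 2 lower in HOMO and 1 in HET). Fibroblast markers (8 genes) summed to 1448 to 1953 CPM in HOMO, 1705 to 2026 CPM in HET and 1583 to 2549 CPM in WT. Smooth muscle and pericyte markers (8 genes) had 1 higher and 3 lower in HOMO, and 1 higher and 5 lower in HET (without WT 2, 1 higher and 1 lower in HOMO, and 2 higher and 2 lower in HET), with sums of 1510 to 1659, 1493 to 1825 and 1485 to 1748 CPM in HOMO, HET and WT. Atrial markers summed to 107 to 366 CPM in HOMO, 98.8 to 421 CPM in HET and 327 to 584 CPM in WT over 5 tested genes, 4 of them lower in each deletion genotype, with and without WT 2. Markers of neurons and Schwann cells (5 tested, up to 38.1 CPM summed in a library), skeletal muscle (3 tested, up to 7.76 CPM) and adipocytes (1 tested, Cfd, up to 11.1 CPM, called lower in both genotypes and in neither without WT 2) were low in every library, Myh4 had no count in any library, and of the erythroid genes 4 globin symbols had no count and Alas2 had 12.2 to 53.8 CPM. The part of these cell types in the levels of the regulators was not tested, and in bulk tissue fewer cells of a type cannot be told apart from less RNA per cell.

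Rbm20 and Rbm24, the regulators most specific to striated muscle, did not pass in either comparison. Rbm20 (ENSMUSG00000043639.15, chromosome 19, 53677306 to 53867080, plus strand), which controls titin exons and is mutated in a form of dilated cardiomyopathy, had 345, 349 and 406 CPM in HOMO, 285, 354 and 378 CPM in HET, and 279 and 368 CPM in WT. The WT libraries spanned nearly the whole range of HET. The log2 fold changes were 0.18 (SE 0.17, adjusted p = 0.461) in HOMO and 0.07 (SE 0.17, adjusted p = 0.804) in HET. They moved with the WT library kept: without WT 2 they were 0.43 and 0.31 (adjusted p = 0.147 and 0.288), and without WT 1 0.0048 and -0.11 (adjusted p = 0.986 and 0.651). Rbm24 (ENSMUSG00000038132.6, chromosome 13, 46418434 to 46431095, plus strand), needed for cardiac sarcomere assembly in mouse, lies on the chromosome that also carries Actn2. It had 307, 339 and 365 CPM in HOMO, 265, 355 and 371 CPM in HET, and 318 and 307 CPM in WT. Its log2 fold changes were 0.11 (SE 0.16, adjusted p = 0.650) and 0.08 (SE 0.16, adjusted p = 0.747) in HOMO and HET, and 0.12 and 0.09 without WT 2 (adjusted p = 0.739 and 0.812). After the correction Rbm20 stood at 0.16 and 0.11 and Rbm24 at 0.13 and 0.10, close to the uncorrected values. A difference that missed the threshold with an SE near 0.17 does not show equal levels.

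**Figure D3:**
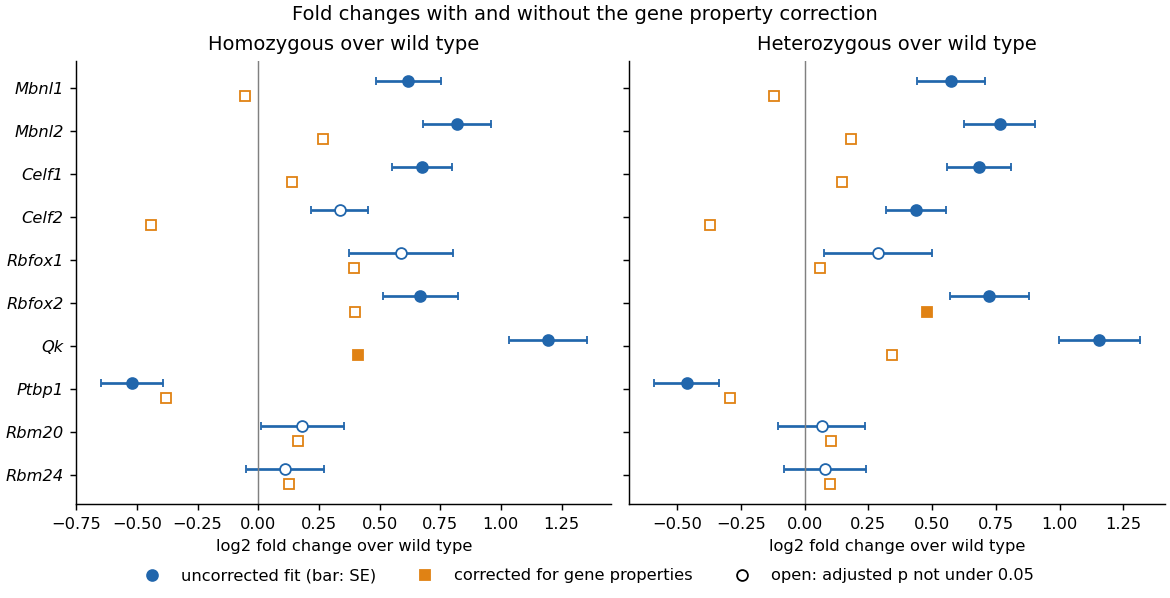
log2 fold change over WT of each regulator in HOMO (left) and HET (right); circles with SE bars are the uncorrected edgeR fit, squares the fit corrected for the 3 gene properties, and open symbols did not reach adjusted p under 0.05. The squares of Celf2 (-0.44 in HOMO, -0.37 in HET) and Mbnl1 (-0.05, -0.12) lie below 0 and their circles above it; Qk in HOMO and Rbfox2 in HET are the filled squares.

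Homozygous and heterozygous hearts were not told apart by any regulator. The log2 fold changes of HOMO over HET ran from -0.10 for Celf2 (SE 0.10) to 0.30 for Rbfox1 (SE 0.19), with a median of 0.03, and no regulator had an unadjusted p under 0.05. Of all genes tested, 0% passed edgeR's adjusted threshold in this comparison, and 411 had an unadjusted p under 0.05; DESeq2 called 3 and limma-voom 1. The largest of these differences, that of Rbfox1, was 54.3 ± 4.19 CPM in HOMO against 44.0 ± 11.8 CPM in HET (SD, n = 3 each), and HET 1 set much of it: without that library it was 0.09. HET 1 had the lowest level of all HET libraries for Mbnl1, Mbnl2, Rbfox1, Rbfox2, Qk, Ptbp1, Rbm20 and Rbm24.

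Levels between regulators were compared as CPM per kb of the longest coding transcript. In WT the order was Rbm24 (101 ± 2.55), Rbm20 (66.1 ± 12.7), Mbnl2 (40.8 ± 0.133), Qk (34.9 ± 4.38), Mbnl1 (25.6 ± 1.33), Ptbp1 (22.2 ± 1.02), Rbfox2 (15.8 ± 3.70), Celf1 (13.9 ± 1.79), Rbfox1 (11.8 ± 1.91) and Celf2 (9.84 ± 0.844 CPM per kb, SD, n = 2). In HOMO Rbm24 was again first (109 ± 9.45) and Celf2 last (12.4 ± 0.174), while Qk stood second (79.9 ± 5.68) and Ptbp1 ninth (15.5 ± 1.77 CPM per kb, SD, n = 3). In HET Qk was also second (77.8 ± 10.2) and Ptbp1 eighth (16.1 ± 1.16 CPM per kb, SD, n = 3). Qk, Rbm20 and Mbnl2 overlapped between neighbours in HOMO and in HET, whereas in WT these 3 were separated in every library. The lower end overlapped too: Rbfox2, Celf1, Rbfox1 and Celf2 between neighbours in WT, Rbfox1 and Ptbp1 in HOMO, and Ptbp1, Rbfox1 and Celf2 in HET. The order rests on annotated length and would change with the isoforms in use.

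Within families, the ratio of paralogs in the same library is free of scaling between libraries, and is given per kb without a test. The ratios are not corrected for gene properties, and the fitted trend differed between paralogs. In WT 2 it was -0.62 for Mbnl1 and -0.51 for Mbnl2, and -0.52 for Celf1 and -0.72 for Celf2 (log2 units). For Rbfox1 and Rbfox2 it was -0.19 and -0.30 there. Mbnl2 to Mbnl1 was 2.03, 1.65 and 1.83 in HOMO, 1.69, 1.87 and 1.87 in HET, and 1.53 and 1.66 in WT. HOMO 2 lay within the WT range, and all HET libraries lay above both WT libraries. Celf2 to Celf1 was 0.595, 0.548 and 0.541 in HOMO, 0.611, 0.608 and 0.572 in HET, and 0.611 and 0.827 in WT. Here WT 2 was high, WT 1 was level with HET, and all HOMO libraries lay below both WT libraries. Rbfox2 to Rbfox1 was 1.40, 1.51 and 1.37 in HOMO, 2.40, 1.73 and 1.57 in HET, and 1.40 and 1.27 in WT. All 3 HET libraries were above both WT libraries and HET 1 was far above the others. Of single genes, 25.7% lay above and 25.6% below both WT libraries in all HET libraries, and 27.2% lay below in all HOMO libraries. How often ratios of other gene pairs separate in this way was not computed.

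**Figure D4:**
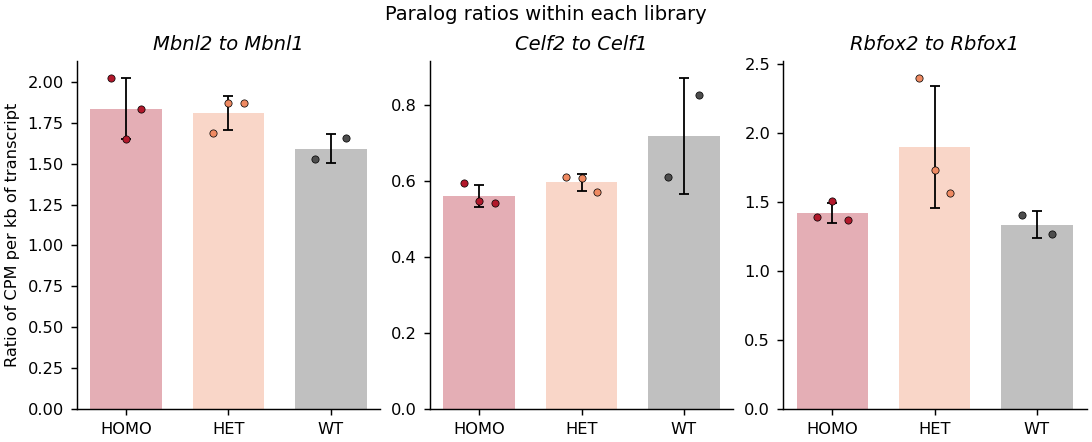
Ratio of CPM per kb of transcript between paralogs within each library; bars give the mean, error bars the SD and points the libraries (HOMO n = 3, HET n = 3, WT n = 2). Mbnl2 to Mbnl1 runs from 1.53 to 2.03, with HOMO 2 within the WT range and all HET libraries above both WT libraries. The single high point for Rbfox2 to Rbfox1 (2.40) is HET 1.

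Other splicing genes, listed by family, give the setting. Of 7 tested paralogs of the 10, 1 rose in HOMO and 2 in HET (medians 0.37 and 0.35): Ptbp3 at 0.45 and 0.57 (adjusted p = 0.0264 and 0.00969), and Celf3, at low levels of 1.04 ± 0.581 CPM in HOMO (SD, n = 3), 1.39 ± 0.208 CPM in HET (SD, n = 3) and 0.331 ± 0.0767 CPM in WT (SD, n = 2), which passed in HET (2.06, adjusted p = 0.0462) and not in HOMO (1.65, adjusted p = 0.0946), nor in HET without WT 2 (1.87, adjusted p = 0.178). Celf5 was at 1.30 and 1.23 and did not pass (adjusted p = 0.354 and 0.386). After the correction the medians of the paralogs were -0.25 and -0.25, 0 were called in HOMO and 1 in HET (Celf3, 2.36, adjusted p = 0.0485), and Ptbp3 stood at -0.35 and -0.25 (adjusted p = 0.12 and 0.256). Of 12 SR proteins, which mark exons for inclusion, 4 fell and 0 rose in each genotype (medians -0.25 and -0.15), with Srsf6 at -0.56 and -0.47 (adjusted p = 0.00622 and 0.0136), Srsf9 at -0.68 and -0.74 (adjusted p = 0.00902 and 0.00587) and Srsf11 at -0.63 and -0.77 (adjusted p = 0.0186 and 0.00716). After the correction 6 fell in each, Srsf6 (-0.90 and -0.84) and Srsf11 (-0.83 and -1.01) among them. Srsf9 was then not called (-0.13 and -0.19, adjusted p = 0.599 and 0.455). Without WT 2, 1 SR protein was called in each; Srsf11 was lost in both (adjusted p = 0.255 and 0.0602), Srsf9 in HOMO (0.068) and Srsf6 in HET (0.0769).

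Of the 7 kinases that phosphorylate SR proteins, 1 rose in each, and 5 fell in HOMO and 4 in HET (medians -0.61 and -0.66). After the correction 0 rose and 2 fell in each (medians -0.20 and -0.30). Without WT 2 the uncorrected medians were -0.43 and -0.27. Srpk2 rose by 0.66 and 0.62 (adjusted p = 0.00815 and 0.0103), the muscle kinase Srpk3 fell by 0.61 and 0.69 (adjusted p = 0.00961 and 0.00512) and Clk2 was at -1.21 and -1.24 (adjusted p = 0.00694 and 0.00618), and none of these 3 was called after the correction. Without WT 2 Clk2 was not called in HOMO (adjusted p = 0.0833) or HET (0.0709), nor Srpk2 in HET (0.0505). Among 24 hnRNPs, which package nascent RNA and often repress exons, 3 rose and 2 fell in each (medians 0.02 and 0.07). Syncrip rose by 0.69 and 0.78 (adjusted p = 0.00468 and 0.00247), Hnrnpl fell by 0.57 and 0.50 (adjusted p = 0.00457 and 0.00808), and Hnrnpul2 rose in HOMO (0.52, adjusted p = 0.0108) and was at 0.34 in HET (adjusted p = 0.0574). After the correction 1 hnRNP rose and 4 fell in each genotype, these 3 were not called, and Syncrip changed sign, at -0.29 and -0.23 (adjusted p = 0.169 and 0.28). Without WT 2, 2 hnRNPs rose and 1 fell in HOMO, and 1 rose and 1 fell in HET.

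Of 33 core spliceosome genes tested, 0 rose, 14 fell in HOMO and 15 in HET (medians -0.40 and -0.39), and the other 19 and 18 did not pass. The U1-associated Luc7l fell by 0.94 and 0.96 (adjusted p = 0.00268 and 0.00217) and was at -1.29 and -1.32 after the correction (adjusted p = 0.00249 and 0.0023). Snrpa of the U1 particle fell by 0.72 in each (adjusted p = 0.00359 and 0.0034). It was not called after the correction (-0.15 and -0.16, adjusted p = 0.458 and 0.457). Sf3b5 of the U2 particle fell by 0.76 and 0.62 (adjusted p = 0.008 and 0.0194). It was at -0.94 and -0.84 after the correction (adjusted p = 0.00918 and 0.0153), and at -0.50 and -0.36 without WT 2. After the correction 5 of the 33 fell in HOMO and 9 in HET (medians -0.18 and -0.25). Without WT 2 (34 tested) the medians were -0.21 and -0.23. Of 23 other splicing factors 3 rose in each, and 3 fell in HOMO and 4 in HET. After the correction 2 rose in each, and 8 fell in HOMO and 9 in HET (medians -0.24 and -0.32, against -0.07 and -0.19 without it), and without WT 2, 2 rose in HOMO and 3 in HET, and 1 fell in each. The RNA-binding protein Msi2 rose by 1.35 and 1.23 (adjusted p = 0.000462 and 0.000636) and stayed called after the correction (0.72 and 0.58, adjusted p = 0.00581 and 0.014). The muscle RNA-binding protein Fxr1 rose by 0.89 in each (adjusted p = 0.00162 and 0.00142, corrected 0.48 and 0.45, adjusted p = 0.0206 and 0.0291) and Puf60 fell by 0.70 and 0.79 (adjusted p = 0.00247 and 0.00126, not called after the correction).

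**Figure D5:**
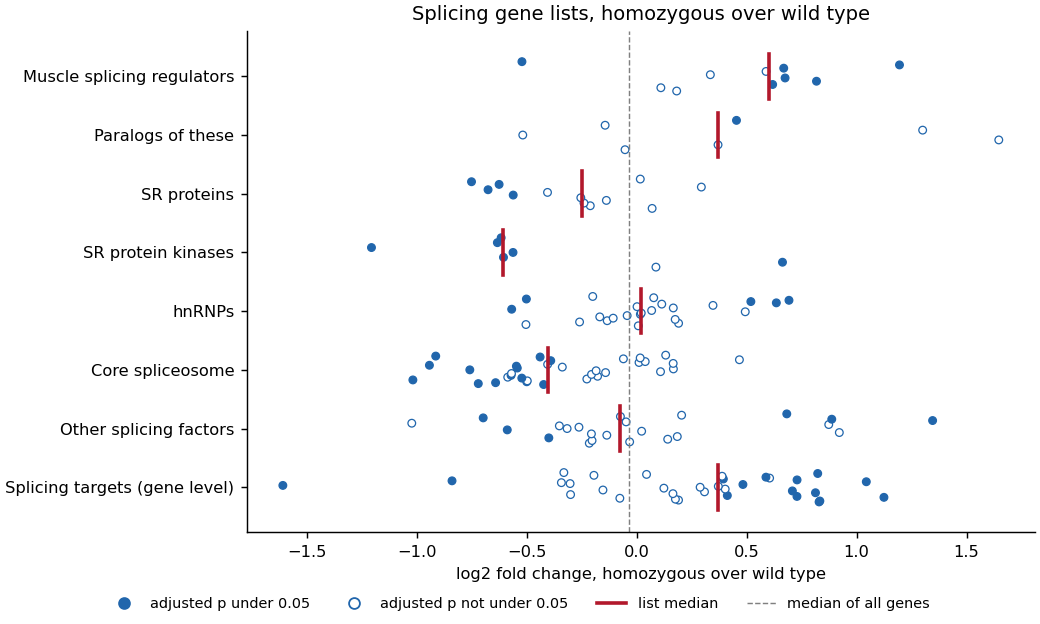
log2 fold change of HOMO over WT for each tested gene of 8 splicing lists; filled points reached adjusted p under 0.05, red bars are list medians and the dashed line is the median of all genes (-0.03). The 10 muscle splicing regulators have a median of 0.60, core spliceosome genes -0.40 and SR protein kinases -0.61. After the gene property correction, not drawn, these medians are 0.15, -0.18 and -0.20.

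Genes whose transcripts are known splicing targets of these proteins were compared at the level of the whole gene. Of 33, 13 rose and 2 fell in HOMO and 12 rose and 4 fell in HET (medians 0.37 and 0.29). After the correction the medians were 0.06 in HOMO and -0.07 in HET. Without WT 2, 11 rose and 1 fell in each. Ryr2, the calcium release channel, rose by 1.12 and 1.20 (adjusted p = 0.00133 and 0.000896), Fhod3, a formin that builds sarcomeric actin, by 1.04 and 0.83 (adjusted p = 0.00261 and 0.00679), and Pdlim3, a Z-disc partner of alpha-actinin 2, fell by 1.61 and 1.12 (adjusted p = 0.00136 and 0.00699). All 3 were called after the correction in both genotypes, where 3 of the 33 rose and 3 fell in HOMO, and 2 rose and 3 fell in HET. How these transcripts were spliced was not measured by gene-level counts. Without WT 2 Pdlim3 was not called in HET (-0.83, adjusted p = 0.0705).

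For each regulator the gene with the most similar pattern over the 8 libraries was found among 9252 others with a mean of at least 10 CPM, as the smallest root mean square difference of centred log2 CPM. These were Fam63b for Qk (0.0409), Xrn1 for Mbnl2 (0.0530), Mllt3 for Mbnl1 (0.0499), Iws1 for Celf1 (0.0323), Snx4 for Celf2 (0.0466), Prpf4b for Rbfox2 (0.0295), Asb10 for Rbfox1 (0.0885), Lrpap1 for Ptbp1 (0.0491), Asb14 for Rbm20 (0.0297) and Prdm2 for Rbm24 (0.0652 log2 units). For scale, the patterns of the regulators themselves deviated from flat by 0.152 for Rbm24 to 0.525 for Qk. Among the regulators the closest were Celf1 and Rbfox2 (0.0896), Celf1 and Mbnl1 (0.0906), Mbnl1 and Mbnl2 (0.123) and Rbm20 and Rbm24 (0.126 log2 units), and Ptbp1 was far from all (0.317 from the nearest, Rbm24).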

How the data were processed

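Bulk RNA sequencing of mouse heart gave raw counts per gene symbol, 1 column per library, deposited by the authors with no normalization. Per the labels, RNA was taken with Trizol and TruSeq libraries were sequenced on an Illumina HiSeq. The submitters' processing notes name build mm10 and the tools featureCounts, Subread, HISAT2, DESeq2 and Trimmomatic 0.36. No source used here gives the annotation or the strand setting. The submitters state that the raw reads of both WT libraries were lost, so those counts cannot be remade from reads.

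Here R 4.3.3 with edgeR 4.0.16 was used: filterByExpr, TMM scaling, 1 robust quasi-likelihood fit of all 8 libraries on genotype, two-sided tests, Benjamini-Hochberg adjustment over 15075 genes and a threshold of 0.05. The spread of a gene is shared by the 3 genotypes. Across genes, log2 CPM of WT 1 and WT 2 correlated at 0.952, and that of HOMO or HET replicates at 0.969 to 0.981. No replicate pair agreed within sampling noise (chi-square per degree of freedom 22.5 or more). SE is that of the log2 fold change. Counts per regulator ran from 668 to 41047 per library. Annotation came from GENCODE M21 (mm10), which held 96.9% of the symbols. The correction fitted splines (4 df each) of GC content and of the lengths of transcript and 3′ UTR to each library's deviation from the mean log2 CPM (prior count 2) and removed them as an offset, for 13863 genes. The scripts were tested on counts simulated with no gene property trend and no outlying library. There edgeR recovered 60.6% of 2-fold and 80.6% of 4-fold changes in HOMO over WT, with 8 false calls. The correction was thus not tested against a trend. Alternatives were DESeq2 1.42.0, limma-voom (limma 3.58.1), other scaling and filters, a replicate block and each library left out. Regulators, lists and tests were chosen with earlier results of these data known; all regulators were named, and of each list the 3 genes with the smallest p for HOMO over WT. Pearson r and likeness are across genes or libraries and carry no p.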

Additional observations from a re-analysis of the deposited data

How the results depend on the processing

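The number of regulators called against WT was 6 in HOMO and 7 in HET. It was 5 to 8 and 6 to 7 with each library left out, 6 and 6 with a replicate block, 8 and 7 in DESeq2, and 7 and 5 when each comparison was fitted on its own genotypes. DESeq2 added Celf2 (adjusted p = 0.0341) and Rbfox1 (0.0361) in HOMO; separate fits added Rbfox1 in HOMO (0.029) and lost Celf2 (0.0749) and Ptbp1 (0.0527) in HET. The gene property correction gave 1 and 1, the correction without WT 1 gave 3 (1 higher, 2 lower) and 2 (1 higher, 1 lower), and the correction without WT 2 gave 0 and 0. Over all genes, 4180 and 4219 were called; the correction gave 1943 and 1850, the correction without WT 2 gave 733 and 680, separate fits gave 2668 in HET, and leaving out a library gave 2135 to 5717 in HOMO and 2359 to 5634 in HET, lowest without WT 2 in each; HOMO had 2564 without HOMO 3. Of the called genes 55.2% and 54.4% were higher, and 73.9% and 69.5% without WT 2. HOMO over HET had 0 calls in edgeR, 3 in DESeq2, 2 with no filter, 1 in limma-voom, 1 with the correction without WT 1, 1 with the correction without WT 2, and 0 to 1 with each library left out; the regulators had 0 under every setting run. The median of all genes moved by less than 0.1 under every setting run. Signs changed as follows. With the correction, Celf2 was at -0.44 in HOMO and -0.37 in HET and Mbnl1 at -0.055 and -0.12; without WT 1 as well, Celf2 was at -0.64 (adjusted p = 0.00432) and -0.56 (adjusted p = 0.00905), Mbnl1 at -0.10 and -0.16 and Rbm20 at -0.054 and -0.12; without WT 2 as well, Celf2 was at -0.20 and -0.12, and in HET Mbnl1 at -0.049 and Rbfox1 at -0.0595. The cause was not tested. The replicate block gave -0.011 for Rbm20 and -0.0098 for Rbm24 in HET, and ended the call of Ptbp1 in HET (-0.41, adjusted p = 0.0664). Deviations from group means did not settle whether shared replicate numbers pair the libraries. They correlated at 0.18, 0.14 and -0.02 for HET and HOMO of numbers 1, 2 and 3. HET 1 and HET 2 each correlated best with the HOMO library of the same number, and HET 3 with HOMO 2 (0.13). With so few libraries in a group this check cannot exclude a pairing. With each library left out, HOMO over WT ran from 0.0048 to 0.43 for Rbm20, and HET over WT ran from -0.11 to 0.31 for Rbm20 and from -0.0066 to 0.24 for Rbm24. HOMO over HET then ran from -0.0445 to 0.0259 for Celf1, -0.0074 to 0.13 for Mbnl1, -0.039 to 0.12 for Mbnl2, -0.15 to 0.0095 for Ptbp1, -0.0658 to 0.10 for Qk, -0.12 to 0.0022 for Rbfox2 and -0.11 to 0.12 for Rbm24, and with no filter Celf1 was at 0.0028. The correction without WT 1 was chosen after seeing the data. With 2 WT libraries, 1 of them apart, the size of any change against WT is poorly fixed, and depth is not the limit for genes with counts as high as these.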
